A study of Homo sapiens with 4 samples.

Results

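The 60 genes described here encode proteins of the cytosolic ribosome or close paralogs of them, 39 for the large subunit and 21 for the small subunit, out of 19775 genes that the array reads with a probe set of their own. They were chosen by name: every probe set whose only annotated symbol is RPSA, RPLP0, RPLP1, RPLP2, or RPL or RPS followed by a digit, without the RPS6K kinases, the RPS4Y genes and pseudogenes. This gave 123 probe sets and 62 symbols, and each gene was read from its brightest probe set. Of the 62 symbols, RPL34-DT and RPL26L1-AS1 are non-coding neighbours that the rule takes in by their spelling, and they are not counted among the 60. RPL5, RPL10, RPL26, RPLP0, RPSA and RPS27A are among the ribosomal protein genes whose probe sets carry several symbols on this array, and they are not analysed here.

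The cells were U937, an established human lymphoma line of monocytic character. One group was treated with 100 nM shikonin, a plant naphthoquinone, for 3 h (2 arrays), and the control group received dimethyl sulfoxide (DMSO), the solvent (2 arrays). Total RNA was measured on the Affymetrix Human Genome U133 Plus 2.0 array, in which a set of short probes near the 3′ end of a transcript gives 1 signal per probe set. The labels do not say whether the 2 arrays of a group come from separate cultures, so the p-values measure only the spread between these arrays, which may be technical.

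A eukaryotic ribosome joins a small subunit, which decodes the mRNA, to a large subunit, which forms the peptide bond, and each holds many proteins on a core of ribosomal RNA. The mRNAs of these proteins are among the most abundant and most stable of a dividing cell. Most begin with a C and an unbroken run of C and T, the 5′ terminal oligopyrimidine (TOP) motif, through which the kinase mTORC1 and the binding protein LARP1 switch their translation on and off. A change in their use can therefore occur with no change in mRNA level, and an array reads only the mRNA level. Ribosomal proteins made in excess of ribosomal RNA are degraded, and RPL5 and RPL11 can bind MDM2, the ligase that removes p53.

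A run of C and T across the annotated start base was present for most members. Such a run may extend before the start, so it is a wider measure than the TOP motif, which begins at the start. RefSeq (GRCh38.p14) gave a start site for 52 of the 60 genes. A run of at least 5 C or T that includes the start base, read on the gene's own strand only, was present at 37 of the 52 (71.2%), against 2675 of the 27305 promoters in the same table (9.80%). A run of at least 8 was present at 34 members (65.4%), against 4.80% of all promoters. The run was present at 35 of 46 ordinary ribosomal protein genes and at 2 of 6 paralogs. The share is a description of annotated start bases, and no match says only that these letters are not at that base. The 60 genes are spread over 19 chromosomes, with at most 7 on any of them (chromosomes 3 and 19).

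The windows below hold 10 bases before the annotated start and 20 from it on, with the run that includes the start base in capitals. RPS6 (chr9:19380217-19380246, minus strand), RPL31 (chr2:101002279-101002308, plus strand) and RPL39 (chrX:119791611-119791640, minus strand) are shown as members with a long run. The run of RPL39, 22 bases, was the longest among members. RPS21 (chr20:62387093-62387122, plus strand) and RPL35A (chr3:197950180-197950209, plus strand) are shown because their values lie at opposite ends of the well measured ordinary members. RPL36AL (chr14:49620607-49620636, minus strand) and RPL22L1 (chr3:170870176-170870205, minus strand) are the paralogs with a run, while RPS27L (chr15:63157458-63157487, minus strand) and RPL7L1 (chr6:42879606-42879635, plus strand) are paralogs with none. RPS28 (chr19:8321486-8321515, plus strand) has no run that includes its annotated start base, and is shown because its probe sets differed. EIF4B (chr12:53006446-53006475, plus strand) is a translation factor with a short run.
RPS6: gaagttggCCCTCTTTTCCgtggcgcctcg
RPL31: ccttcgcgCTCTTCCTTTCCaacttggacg
RPL39: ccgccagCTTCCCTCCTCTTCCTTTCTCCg
RPS21: ctagctgCTTCCTTTCTCTCTCgcgcgcgg
RPL35A: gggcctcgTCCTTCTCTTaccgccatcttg
RPL36AL: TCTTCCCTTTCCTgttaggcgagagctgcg
RPL22L1: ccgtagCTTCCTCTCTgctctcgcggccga
RPS27L: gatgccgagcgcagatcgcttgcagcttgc
RPL7L1: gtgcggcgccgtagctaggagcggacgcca
RPS28: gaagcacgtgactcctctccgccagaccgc
EIF4B: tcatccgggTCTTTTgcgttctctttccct
Both genes with values at opposite ends have a run, of 15 bases for RPS21 and 10 for RPL35A. The run of RPL36AL is 15 bases long and begins before its window, with most of it before the annotated start.

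The arrays were alike in their general level. Median signal was 61.0 and 63.7 in the shikonin arrays and 60.5 and 62.2 in the DMSO arrays, and the mean after trimming 2% at each end was 500.1 on every array. Ribosomal proteins stood at the top of the signal range: 32 of the 100 brightest probe sets belonged to members. Their summed signal made up 3.62% and 3.78% of all signal in the shikonin arrays, and 3.56% and 3.77% in the DMSO arrays, so the groups overlapped. Of 12 myeloid markers 9 passed the filter on dim probe sets, with mean signals of 69.3 to 20267. Of the 9, 7 were below 0 and 1 was called lower (11.1%, against 6.65% of all genes). That was the leukocyte marker PTPRC, with a log2 change of -0.35 (limma, adjusted p = 0.0223). The call on this probe set was lost without shikonin replicate 2 or without DMSO replicate 2. Further probe sets of PTPRC gave -0.51 and -0.85 and were called lower too (limma, adjusted p = 0.00189 and 9.76e-04). A dim one gave 0.11 and was not called. Of 8 markers of lymphoid and other cells 3 passed the filter, with mean signals of 49.7 to 108, and none was called (KRT18 and CD3D had the smallest p among them, with adjusted p of 0.455 and 0.82 by limma). The part of these markers in the results on ribosomal proteins was not tested.

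The ribosomal protein signals were close to their DMSO level under shikonin, with no member past the test. For 44 of the 60 genes the probe set used ended in _x_at or _s_at. Whether such probe sets also read related transcripts or pseudogenes was not tested. Of the 60 genes 59 passed the filter, which dropped the dimmest 40% of probe sets by their mean. None of the 59 was called higher and none lower by limma at an adjusted p of 0.05, against 5.05% of all 13554 genes called higher and 6.65% called lower. At an unadjusted p under 0.05 there were 5 members (8.47%), against 3789 of the 13554 genes. The median log2 change over the 59 was 0.05, against 0.003 over all genes, where log2 values are of the signal plus a pseudocount of 9.94. Changes ranged from -0.13 to 0.44, with 53 members above 0 and 6 below.

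**Figure D1:**
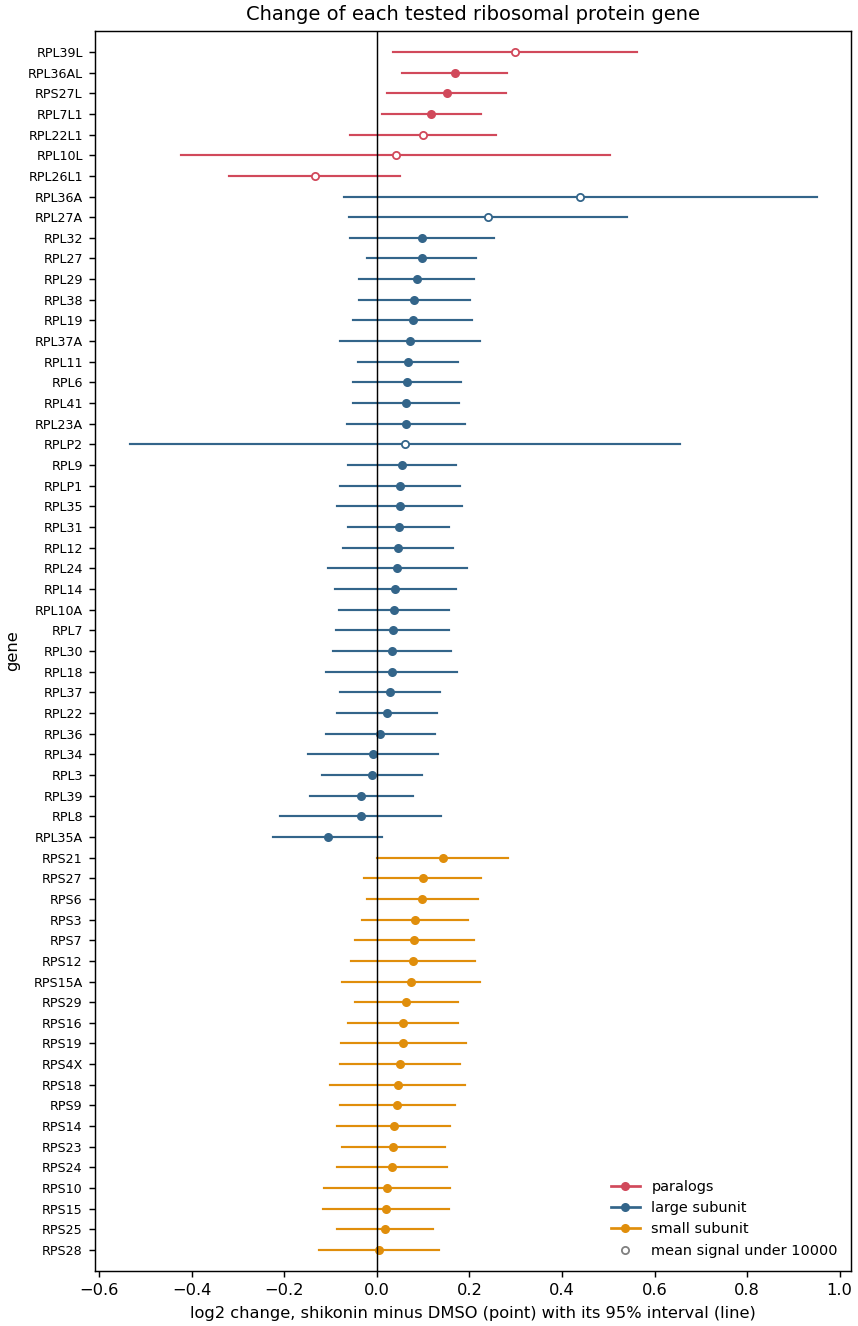
Log2 change between shikonin and DMSO (horizontal axis, point) with its 95% interval (line) for each of the 59 tested genes, by class (vertical axis), 2 arrays per group. Filled points have a mean signal of 10000 or more and open points less; the intervals of most bright genes lie close around 0, while the widest belong to dim probe sets.

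A small positive shift was also present in other bright genes. Among 67 other genes with a mean signal of 20000 or more, 59 were above 0 and the median change was 0.06, while 44 of the 49 members that bright were above 0 with a median of 0.05. The 2 sets differed in another count. Both shikonin arrays lay above both DMSO arrays for 6 of the 49 members (12.2%) and for 32 of the 67 other genes (47.8%). The 2 sets of bright genes were not tested against each other. Of those 67 genes 4 were called higher and 1 lower, against 5.05% and 6.65% of all genes. Both shikonin arrays lay above both DMSO arrays for 13 of the 59 members (22.0%), against 28.2% of all genes, and both lay below for 1 member, RPL35A, against 27.3% of all genes. The 13 were 5 paralogs and RPL11, RPL27, RPL27A, RPL36A, RPL38, RPS3, RPS6 and RPS21. The sign of the shift also hung on the scaling between arrays: with quantile normalization the median over members was -0.02 and 16 of 59 were above 0.

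**Figure D2:**
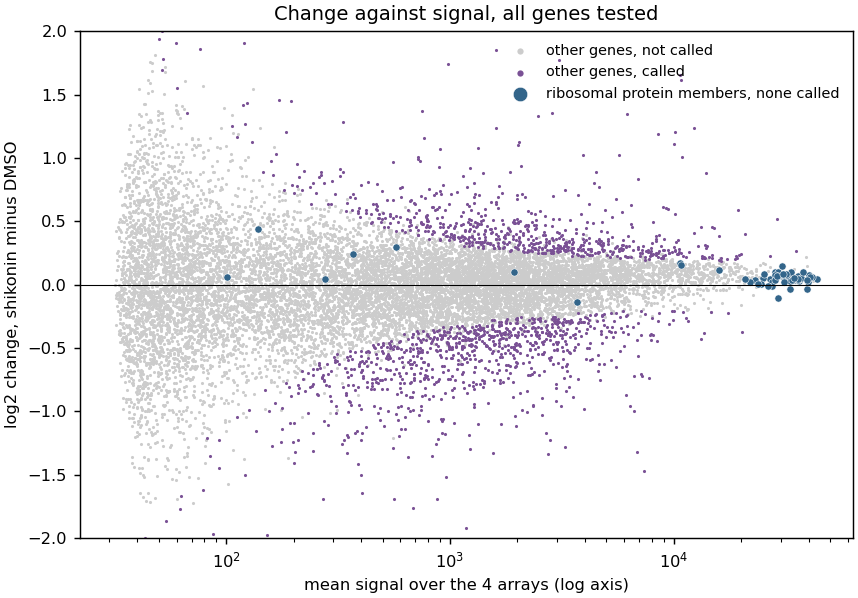
Log2 change between shikonin and DMSO (vertical axis) against mean signal over the 4 arrays (horizontal log axis) for the 13554 genes tested, with ribosomal protein genes as large points. Most members sit at the bright end near 0 and none was called; 13 genes beyond a change of 2 in either direction are not drawn.

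The array-to-array spread within a group was as large as the difference between groups. The median log2 signal over tested members was 14.86 and 14.95 in the shikonin arrays, and 14.76 and 14.88 in the DMSO arrays. The second DMSO array thus stood above the first shikonin array. The second array was the higher one for 49 of 59 members under shikonin and for 52 of 59 under DMSO, and 46 members did so in both groups. Leaving out the first DMSO array turned the median change over members to -0.01, and leaving out the second raised it to 0.10, with no member called in either case, where the group left with 1 array is assumed to vary like the other.

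**Figure D3:**
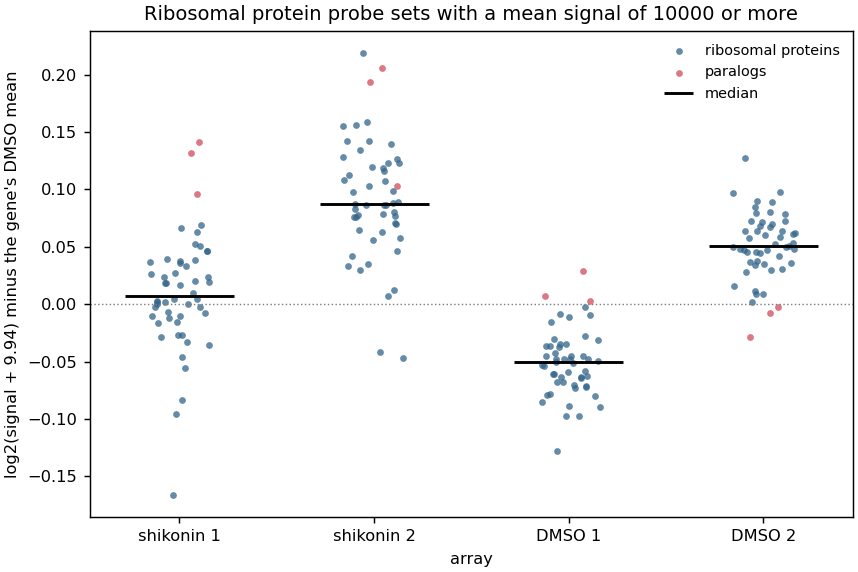
Log2 signal of each ribosomal protein gene with a mean signal of 10000 or more, minus that gene's mean over the DMSO arrays (vertical axis), in each of the 4 arrays (horizontal axis), with the median as a bar. The second array of each group is above the first for most genes, and the clouds of shikonin 1 and DMSO 2 overlap.

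For the 49 ordinary members with a mean signal of 20000 or more the intervals were narrow under the deposited scaling. Their log2 changes ran from -0.11 to 0.14, and every 95% interval lay between -0.22 and 0.28, which is a fold of 0.856 to 1.22. The median interval reached 0.12 to each side of its value. These intervals cover the spread between these arrays and not the choice of scaling. The 49 members also lay near the top of the signal range, with mean signals of 20776 to 43839. The highest signal on an array was 41709 to 45934. Whether signals this high still follow the mRNA amount in full was not tested, so the intervals bound the signal and not the mRNA. With quantile normalization the median over the 59 tested members moved from 0.05 to -0.02.

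In the small subunit all 21 tested genes had a value above 0, with a median of 0.06, a range of 0.005 to 0.15 and no call. RPS6, the protein that S6 kinase phosphorylates downstream of mTORC1, had signals of 37568 and 40857 in the shikonin arrays, and 35819 and 37396 in the DMSO arrays. Its groups do not overlap, but they are close: the log2 change was 0.10 (SE 0.053, limma adjusted p = 0.302). RPS19, which is mutated most often in Diamond-Blackfan anaemia, had 40506 and 42243 in the shikonin arrays, and 37504 and 42179.6 in the DMSO arrays, so its groups overlap (log2 change 0.06, adjusted p = 0.624, limma). RPS27, a zinc-finger protein of the small subunit, had 33811 and 35216 in the shikonin arrays, and 30667 and 33858 in the DMSO arrays, with overlap and a log2 change of 0.10 (adjusted p = 0.328, limma).

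RPS21, named after its values were seen, had the highest value of an ordinary small subunit gene. RPS21 had signals of 30149 and 33503 in the shikonin arrays, and 27641.5 and 29989 in the DMSO arrays. The lowest shikonin value is just above the highest DMSO value, and the log2 change of 0.14 (95% interval 0.001 to 0.28) did not pass after adjustment (limma, adjusted p = 0.203). RPS16 and RPS10, among the 5 brightest members, had log2 changes of 0.06 and 0.02, with overlapping groups in both. RPS3, a protein at the mRNA entry site that was named after its values were seen, had 31919.7 and 33322 in the shikonin arrays, and 29812 and 31848.5 in the DMSO arrays, a gap far smaller than the range within each group (log2 change 0.08, adjusted p = 0.373, limma).

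In the large subunit 38 genes were tested, 32 of them above 0, with a median of 0.05 and no call. RPL31, the brightest member, had signals of 45051 and 44026 in the shikonin arrays, and 41709 and 44568.5 in the DMSO arrays. The values overlap and the log2 change was 0.05 (SE 0.048, limma adjusted p = 0.614). RPL37A, also among the brightest, had a log2 change of 0.07. RPL27 and RPL38, named after their values were seen, had non-overlapping groups and log2 changes of 0.10 and 0.08, with adjusted p of 0.299 and 0.405 by limma. RPL11, which with RPL5 and the 5S RNA forms the particle that binds MDM2, had signals of 30758 and 31652 in the shikonin arrays, and 29015 and 30567 in the DMSO arrays. The groups do not overlap but the gap between them is small, with a log2 change of 0.07 (adjusted p = 0.443, limma).

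The stalk of the large subunit, which recruits the GTPase factors of elongation, is represented by RPL12 at its base and by RPLP1 and RPLP2. RPLP1 had signals of 35976 and 39441 in the shikonin arrays, and 35147.5 and 37662 in the DMSO arrays, with overlap and a log2 change of 0.05. RPL12 had 26500.1 and 28092 in the shikonin arrays, and 25628 and 27293 in the DMSO arrays, again with overlap and a log2 change of 0.04. RPLP2 was read only by dim probe sets. The brighter one had signals of 106 and 101 in the shikonin arrays, and 92.7 and 105 in the DMSO arrays. Its interval, -0.53 to 0.65, is too wide to bound a change. RPL27A and RPL36A were likewise read only by dim probe sets, with log2 changes of 0.24 (adjusted p = 0.314) and 0.44 (adjusted p = 0.277) by limma, neither of them called.

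Of the ordinary members 5 had a value below 0: RPL35A, RPL8, RPL39, RPL3 and RPL34, of which RPL35A, RPL8 and RPL34 are named after their values were seen. RPL8, RPL39, RPL3 and RPL34 had log2 changes of -0.04, -0.03, -0.01 and -0.01, with overlapping groups. RPL35A, a large subunit protein that is also mutated in Diamond-Blackfan anaemia, had the lowest value. RPL35A had signals of 26895 and 29205 in the shikonin arrays, and 29979.6 and 30366 in the DMSO arrays. Both shikonin arrays are below both DMSO arrays, yet the log2 change of -0.11 (95% interval -0.22 to 0.01) did not pass (limma, adjusted p = 0.252). It was called lower with quantile normalization (-0.20, limma adjusted p = 0.0115) and with the replicate number as a block. A second bright probe set of RPL35A had a log2 change of -0.05 with overlapping groups.

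The paralogs, which replace a ribosomal protein in some tissues or act elsewhere in the cell, had a higher median than the ordinary members, with none past the test. Of the 8 paralogs 7 were tested, with a median log2 change of 0.12, against 0.05 for the 52 ordinary members, and both shikonin arrays lay above both DMSO arrays in 5 of 7, against 28.2% of all genes and 47.8% of the 67 other genes with a mean signal of 20000 or more. None of the 7 was called. A median of this size was not particular to the paralogs. It was 0.12 for mitochondrial ribosomal proteins (mean signals of 581 to 15686) and for ribosome biogenesis factors, and 0.08 for translation factors. In these lists, described below, both shikonin arrays lay above both DMSO arrays in 47 of 75, 31 of 57 and 22 of 39 genes. The paralogs were less bright than the ordinary members, with mean signals of 277 to 15942, and the groups of genes were not tested against each other.

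RPL36AL, which encodes a near copy of the RPL36A protein, had the smallest adjusted p of all members. RPL36AL had signals of 11029.9 and 11441 in the shikonin arrays, and 10018 and 9981 in the DMSO arrays. The groups are well apart for their spread, with a log2 change of 0.17 (95% interval 0.05 to 0.28, limma adjusted p = 0.0737). Its partner RPL36A was too dim for a comparison, with signals of 174 and 149 in the shikonin arrays, and 109.8 and 123 in the DMSO arrays.

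RPS27L, a p53 target and the paralog of RPS27, had signals of 10928 and 11789 in the shikonin arrays, and 10428 and 10021 in the DMSO arrays. The groups do not overlap, and the log2 change was 0.15 (SE 0.057, limma adjusted p = 0.14), against 0.10 for RPS27. RPL7L1, a nucleolar relative of RPL7 that takes part in pre-ribosome assembly, had 16755 and 16425 in the shikonin arrays, and 15374 and 15215 in the DMSO arrays. Its arrays are tight within each group, with a log2 change of 0.12 (SE 0.047, adjusted p = 0.166 by limma), against 0.03 for RPL7. RPL39L, a testis-enriched relative of RPL39 at the exit tunnel, had 671 and 593 in the shikonin arrays, and 534 and 489 in the DMSO arrays. These groups do not overlap either, with a log2 change of 0.30 (SE 0.117, adjusted p = 0.153 by limma), against -0.03 for RPL39.

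RPL22L1, the paralog of RPL22, had signals of 2039 and 1965 in the shikonin arrays, and 1874 and 1859 in the DMSO arrays, with a log2 change of 0.10 against 0.02 for RPL22. RPL26L1, the paralog of RPL26, was the only paralog below 0. RPL26L1 had 3324 and 3701.5 in the shikonin arrays, and 4109.8 and 3609 in the DMSO arrays, with overlap and a log2 change of -0.13 (adjusted p = 0.362 by limma). RPL10L, the testis paralog of RPL10, had 302 and 255 in the shikonin arrays, and 221 and 329 in the DMSO arrays, a spread that covers any difference. RPL3L, the muscle paralog of RPL3, was below the filter and not tested, with signals of 18.2 and 17.1 in the shikonin arrays, and 8.67 and 4.67 in the DMSO arrays. RPL3 itself had a log2 change of -0.01.

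Further probe sets of the same genes had values near 0 where they were bright. There were 61 of them, 56 of which were tested. The 19 with a mean signal of 10000 or more had log2 changes of -0.05 to 0.13, with 18 above 0 and no call. The 37 dimmer ones ran from -0.57 to 0.99, with 19 above 0 and 18 below. Of the 56 none was called higher and 1 lower, against 3.92% and 5.28% of all probe sets tested.

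The exception was a dim second probe set of RPS28, a small subunit protein beside the mRNA channel, named after its values were seen. It had signals of 426 and 510.2 in the shikonin arrays, and 649 and 748 in the DMSO arrays. Both shikonin arrays are clearly lower, with a log2 change of -0.57 (SE 0.13, limma adjusted p = 0.0274). The remaining dim probe set of RPS28 had a log2 change of -0.43 and was not called (adjusted p = 0.215, limma). The brightest probe set of RPS28 had 22905 and 24894 in the shikonin arrays, and 23017.5 and 24603 in the DMSO arrays, which is no difference beyond the spread (log2 change 0.005). What the dim probe sets read was not tested.

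Genes that build and use ribosomes were read beside the ribosomal proteins. Of 75 mitochondrial ribosomal proteins, which serve the separate ribosome of mitochondria, 12 were called higher (16%) and none lower, with a median log2 change of 0.12, against 5.05% higher and 6.65% lower among all genes. MRPL54 rose most clearly, with signals of 2109 and 2065 in the shikonin arrays, and 1159.9 and 1263 in the DMSO arrays (log2 change 0.78, SE 0.078, limma adjusted p = 5.35e-04). MRPL20, MRPL18 and MRPL27 rose by 0.38, 0.36 and 0.33 on the log2 scale. With quantile normalization 2 of the 75 were called lower and 11 higher. Without shikonin replicate 1, shikonin replicate 2 or DMSO replicate 1 the higher calls numbered 4 each time, and MRPL27 was not among the genes called. The cytosolic and mitochondrial lists were not tested against each other, and their members differ in signal.

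**Figure D4:**
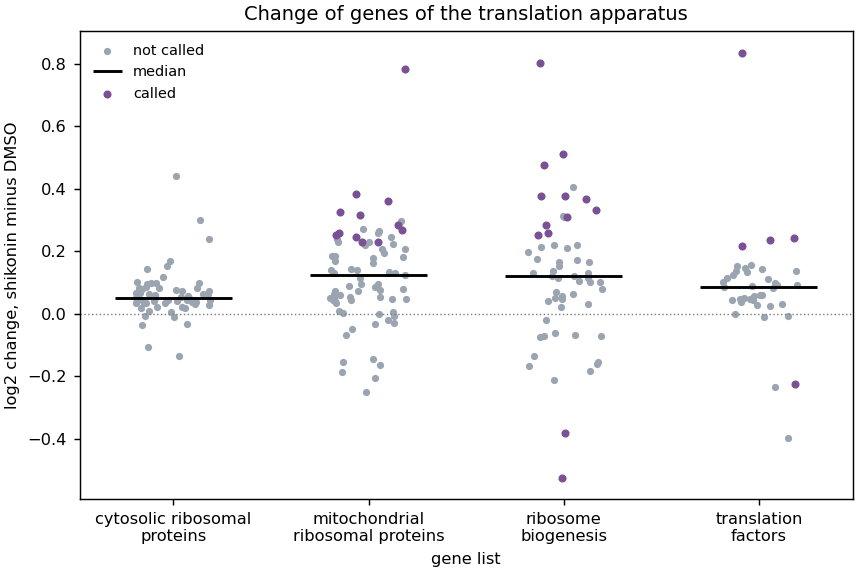
Log2 change between shikonin and DMSO (vertical axis) of each tested gene in 4 lists of the translation apparatus (horizontal axis), with the median as a bar and called genes in a darker colour. Cytosolic ribosomal proteins have no called gene, while 12 mitochondrial ribosomal proteins, 13 ribosome biogenesis factors and 5 translation factors were called.

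Of 66 ribosome biogenesis factors 57 were tested, 11 were called higher (19.3%) and 2 lower (3.51%), against 5.05% and 6.65% of all genes, with a median log2 change of 0.12. Leaving out 1 array at a time gave 4 to 7 higher calls. GRWD1, a chaperone of RPL3, had signals of 1679 and 1575 in the shikonin arrays, and 853 and 1012 in the DMSO arrays (log2 change 0.80, SE 0.0996, limma adjusted p = 0.00171). GNL3L, a nucleolar GTPase, and RRP9, a protein of the U3 particle that cleaves pre-ribosomal RNA, rose by 0.51 and 0.48 on the log2 scale. LTV1, a maturation factor of the small subunit, fell by 0.38 on the log2 scale (limma, adjusted p = 0.00875). A dim second probe set of LTV1 went the other way, at 0.36 with groups that do not overlap, and was not called.

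Of 44 translation factors 39 were tested, 4 were called higher (10.3%) and 1 lower (2.56%), with a median log2 change of 0.08. Together, 5 of 39 is near the share of all genes called, 5.05% higher and 6.65% lower, and leaving out 1 array at a time gave 1 or 2 higher calls. EIF5, the GTPase activator of initiation, had signals of 8492 and 9168 in the shikonin arrays, and 4780.1 and 5109 in the DMSO arrays. The groups are far apart, with a log2 change of 0.84 (SE 0.063, limma adjusted p = 1.09e-04), and 3 further probe sets of EIF5 gave 0.998 to 1.07, while a dim one gave -0.44 and was called lower (limma, adjusted p = 0.047). EIF4G2, a relative of the initiation scaffold, and EIF2S1, the alpha subunit of eIF2, each rose by 0.24 on the log2 scale. EIF4B, a helper of the helicase eIF4A with the short run printed above, fell by 0.22 (adjusted p = 0.0284, limma), while its other probe sets gave -0.08 and 0.003 and were not called. EIF4B and EIF2S1 were not called without any 1 of the 4 arrays, nor EIF4G2 without either shikonin array.

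Other mRNAs known to carry a TOP motif had a similar median. Of 15 listed 12 were tested, with a median log2 change of 0.06. None was called higher and EIF4B alone was called lower (8.33%), against 5.05% and 6.65% of all genes. FAU, whose product is a fusion that yields a small subunit protein, was the only one of 4 ribosomal components outside the naming rule to be tested, with a log2 change of 0.11 and no call. Among members with a start site, the median change was 0.05 for the 37 with a run of at least 5 and 0.06 for the 15 without. These 2 sets were not tested against each other.

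The 15 host genes of small nucleolar RNAs include non-coding TOP transcripts that translation destabilises. Of the 5 tested, 1 was called higher and 1 lower (20% each), against 5.05% and 6.65% of all genes. With 5 genes these shares carry little weight. GAS5 was called higher, with signals of 496 and 450.2 in the shikonin arrays, and 177 and 200.2 in the DMSO arrays (log2 change 1.28, SE 0.151, limma adjusted p = 0.00126). Its only tested probe set is dim, with a mean signal of 331. EPB41L4A-AS1 was called lower, with a log2 change of -0.44 and of -0.96 on a second probe set. The 2 called genes moved in opposite directions. The host genes and the ribosomal protein genes were not tested against each other.

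Regulators of ribosomal protein mRNAs and of the MDM2 checkpoint gave 1 higher (3.85%) and 3 lower calls (11.5%) among 26 tested of 28 listed, against 5.05% and 6.65% of all genes. MYC, a transcription factor that drives ribosome production, had signals of 16833 and 18295 in the shikonin arrays, and 22497 and 23146 in the DMSO arrays. MYC thus fell by 0.38 on the log2 scale (SE 0.054, limma adjusted p = 0.00352). ZNF598, a ligase that marks collided ribosomes, fell by 0.77, and AKT1S1, the mTORC1 inhibitor PRAS40, fell by 0.44 (adjusted p = 0.0293, limma). A dim second probe set of AKT1S1 gave 0.26 with overlapping groups and was not called. LARP4, which binds poly(A) tails and stabilises ribosomal protein mRNAs, rose by 0.36 on the log2 scale. Neither LARP4 nor AKT1S1 was called without shikonin replicate 1 or without DMSO replicate 2, and AKT1S1 was not called without DMSO replicate 1 either.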

How the data were processed

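Values were the authors' deposited signal intensity per probe set, on a linear scale. No source used here names the program behind these signals or their scaling. They were not scaled again. After 62 control probe sets and the dimmest 40% of the others (by mean log2 value) were dropped, 32768 of 54675 stayed. Values were log2(signal + 9.94), the pseudocount being the 20th percentile of all values. The groups were compared with limma 3.58.1 in R 4.3.3 (lmFit, eBayes with a variance trend, 2 residual degrees of freedom, 2-sided), with p-values adjusted by Benjamini-Hochberg across every probe set that stayed; the fit was tested on simulated data. With 2 arrays per group, their number limits the precision. The brightest single-symbol probe set represented each gene. All 62 symbols matched RefSeq by gene ID.

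Members and lists were chosen with earlier results of these data known. Genes named were the called members, the 5 brightest and 5 dimmest, those of the 5S particle, the stalk, RPSA, RPS27A, RPS19, RPS6, RPL10, paralogs with partners, untested members, members with opposite calls, and up to 4 called genes per list by smallest p, or 2 where none was called. Genes named otherwise are marked as chosen after their values were seen. Alternatives were quantile normalization, median centring, other pseudocounts and filters, the mean over probe sets, no _x_at or _s_at probe sets, a single variance prior, the replicate number as a block, and leaving out each array. The labels do not say that replicate numbers pair arrays across groups. The difference of second minus first array correlated between groups at 0.02 over all probe sets and -0.18 over members, a measure that leaves out a shift shared by all members (46 of 59 had the higher second array in both groups). With 2 numbers only and no label, the numbers were not taken as pairs.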

Additional observations from a re-analysis of the deposited data

Results flagged for a closer look

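The second probe set of RPS28 is listed because it was not used for the gene's value and yet was called lower, with a log2 change of -0.57 where the brightest probe set gave 0.005. Its adjusted p by limma ran from 0.00392 to 0.218 over the alternatives, and the call was lost without shikonin replicate 1 (0.108), without DMSO replicate 2 (0.121), with no filter on dim probe sets (0.0628) and with a single variance prior (0.218).

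Probe sets that carry a ribosomal protein symbol beside other symbols were also outside the gene values. Of the 62 tested 1 was called higher and none lower, against 3.92% and 5.28% of all probe sets tested. The called probe set had signals of 19455 and 20211 in the shikonin arrays, and 17464 and 17037.5 in the DMSO arrays, with a log2 change of 0.20 (SE 0.048, limma adjusted p = 0.0334). The gene it reads is not named because it carries several symbols. The median over the 62 was 0.08, and 53 were above 0.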

How the results depend on the processing

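No member was called in 10 of the 14 alternatives, 4 of which leave out an array. Quantile normalization called 1 lower (RPL35A) and turned the median change over members to -0.0237, where it was 0.05. Leaving out _x_at and _s_at probe sets called 1 lower, RPS28 through its second probe set at -0.57, and gave EIF5 as -0.44 from a dim probe set. That alternative left 32 members to test, 19 of them above 0, with a median of 0.0388. The mean over a gene's probe sets called 1 higher (RPS15A). The replicate block called 1 lower (RPL35A) and 6 higher (RPL36AL, RPL7L1, RPS21, RPS27, RPS27L and RPS6), with 1234 genes higher and 1324 lower in all, against 685 and 901. The labels do not tie same-numbered arrays together; the second array was the higher one in both groups for 46 of 59 members, a shift the block takes out. Leaving out 1 array at a time gave no member called in either direction (0 to 0) and a median of -0.0059 to 0.1048; the spread then comes from the other group alone, so the absence of calls says nothing about stability. A single variance prior called no gene at all (0 of 13554). Calls on the comparison lists moved more: mitochondrial ribosomal proteins called higher ran from 0 to 23 (lower from 0 to 2), ribosome biogenesis factors from 0 to 18 and translation factors from 0 to 8, each at 0 with the single prior. The cause of these differences was not tested beyond the way each alternative is built.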
